A study of Mus musculus with 4 samples.

Results

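The genes of cholesterol and fatty acid synthesis were followed in mammary epithelial cells of mice carrying MMTV-Cre and of wild-type littermates. The set has 32 listed genes, 19 of the sterol branch and 13 of the fatty acid branch, taken by symbol. A probe set was used where the platform annotation gave it that single symbol, and 30 of the 32 genes had one, each with 1 probe set, among 22180 genes named in this way. Idi1 and Scd2 had probe sets that carry more than 1 symbol and were not analysed here. Of the 30 measured genes, 27 had a mean over the arrays of 2.84 or more on the log2 scale, which is the median of all probe sets, and entered the test. Lss, Acacb and Thrsp lay below that limit and are given as values, with intervals from a fit of all 22180 genes and no call.

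The study hybridised 4 arrays, 2 of MMTV-Cre and 2 of wild-type samples, with total RNA of mammary epithelial cells from mice aged 4 weeks, all congenic on FVB/NJ. MMTV-Cre places the Cre recombinase under the promoter of a mouse mammary tumour virus, which is active in mammary epithelium and in some other cells as well. The labels name no other allele and no agent in either group, and the line of the transgene and the number of mice in a sample were not given in the sources used here. The inguinal glands were minced and digested with collagenase, and stroma was removed by centrifugation, so the samples are cell aggregates in bulk. The values are log2 expression made by the authors with RMA, which equalises the arrays, so a level means the log2 signal of a probe set and a difference is MMTV-Cre minus wild-type. In such samples fewer cells of a type and less RNA per cell cannot be told apart.

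Cells make cholesterol from acetyl-CoA through mevalonate, isoprenoid diphosphates, squalene and lanosterol, and make fatty acids from the same precursor through malonyl-CoA. Both branches are under the SREBP transcription factors. These are bound to SCAP and are held in the endoplasmic reticulum by the INSIG proteins when sterols are plentiful. They are cut free and sent to the nucleus when sterols fall. SREBP2, from Srebf2, acts mainly on sterol genes, and SREBP1, from Srebf1, mainly on fatty acid genes. The mammary epithelium is known for strong induction of this programme in lactation, and the adipocytes around the ducts make and store fatty acids as well.

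SREBP acts at promoters together with the factors NF-Y, which binds the CCAAT box, and Sp1, which binds the GC box. The 250 bases before each start site were taken from RefSeq (build GRCm38.p6), which held 30 windows for 24 of the 30 measured genes. Stard4, Fdps, Fdft1, Sqle, Scd1 and Fads1 had no window and were not searched. Both strands were searched for 4 motifs that do not contain one another, TCACNCCAC (the core of the sterol regulatory element), CCAAT (the CCAAT box), GGGCGG (the GC box) and CACGTG (the E box). The CCAAT box was found in 21 of these windows (70.0%), against 33.8% of all 32851 promoter windows, and the GC box in 19 (63.3%), against 32.7%. The E box was found in 5 windows (16.7%, against 6.02% of all), those of Dhcr7, Elovl5, Hsd17b7, Insig1 and Sc5d. The sterol core was found in 1 window (3.33%, against 1.05%), that of Hmgcs1. These are matches of letters and were not tested. A missing match says only that those letters are not in that window. The windows of 3 genes are shown. Hmgcs1 alone of the 24 genes searched holds the sterol core, and Insig1 and Elovl5 have the smallest p-values of their branches. Capitals mark the 4 motifs on either strand, and all 3 lie on the plus strand, at chr13:119690101-119690350 for Hmgcs1, chr5:28071162-28071411 for Insig1 and chr9:77917115-77917364 for Elovl5.
Hmgcs1: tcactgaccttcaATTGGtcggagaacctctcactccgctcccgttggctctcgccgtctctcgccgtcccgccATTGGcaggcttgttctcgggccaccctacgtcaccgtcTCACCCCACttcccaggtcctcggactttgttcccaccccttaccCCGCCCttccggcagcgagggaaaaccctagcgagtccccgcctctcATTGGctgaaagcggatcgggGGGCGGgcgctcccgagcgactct
Insig1: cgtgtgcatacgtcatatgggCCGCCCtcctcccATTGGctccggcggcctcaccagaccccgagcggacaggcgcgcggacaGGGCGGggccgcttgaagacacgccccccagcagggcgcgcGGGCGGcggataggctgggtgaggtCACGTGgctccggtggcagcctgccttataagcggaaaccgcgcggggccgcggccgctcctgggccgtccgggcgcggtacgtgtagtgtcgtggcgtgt
Elovl5: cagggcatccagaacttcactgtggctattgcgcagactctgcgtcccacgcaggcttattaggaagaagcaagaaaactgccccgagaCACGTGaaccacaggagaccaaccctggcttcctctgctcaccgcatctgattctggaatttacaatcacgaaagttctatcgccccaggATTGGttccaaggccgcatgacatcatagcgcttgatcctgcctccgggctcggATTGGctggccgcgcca
In Hmgcs1 the sterol core starts 137 bases before the start site, between CCAAT boxes that start at 176 and 45 bases. In Insig1 the E box starts 101 bases before the start site, downstream of 3 GC boxes. In Elovl5 it starts 161 bases before the start site, upstream of 2 CCAAT boxes.

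The question was whether carrying the MMTV-Cre transgene goes with other transcript levels. None of the 27 tested genes of either branch passed the threshold of an adjusted p under 0.05 by limma, in which 0 of 11668 genes passed (0%). The smallest adjusted p among the 27 was 0.964. At an unadjusted p under 0.05 there was 1 of 27, the elongase gene Elovl5, against 504 of 11668 genes (4.32%). Groups did not overlap in 8 of the 27 genes (29.6%), against 33.1% of all genes tested. Of these 8, 4 were higher in both MMTV-Cre arrays (Elovl5, Dhcr7, Fasn and Sc5d), where 16.7% of all genes were, and 4 were lower in both (Insig1, Elovl6, Pmvk and Nsdhl), where 16.5% were. These shares are near those of all genes and single out neither branch. The 95% intervals of the 27 genes all lay between −0.86 and 0.75, so each lay inside a log2 difference of 1 in either direction, a 2-fold change. This held for 96.2% of all genes tested. Intervals inside 0.5 in either direction, a 1.41-fold change, were found for 13 of the 27 (48.1%, against 55.8%). Intervals are for single genes and are not adjusted for their number. The labels call the samples biological replicates, and with 2 against 2 a two-sided exact permutation test cannot give a p under 0.333.

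**Figure D1:**
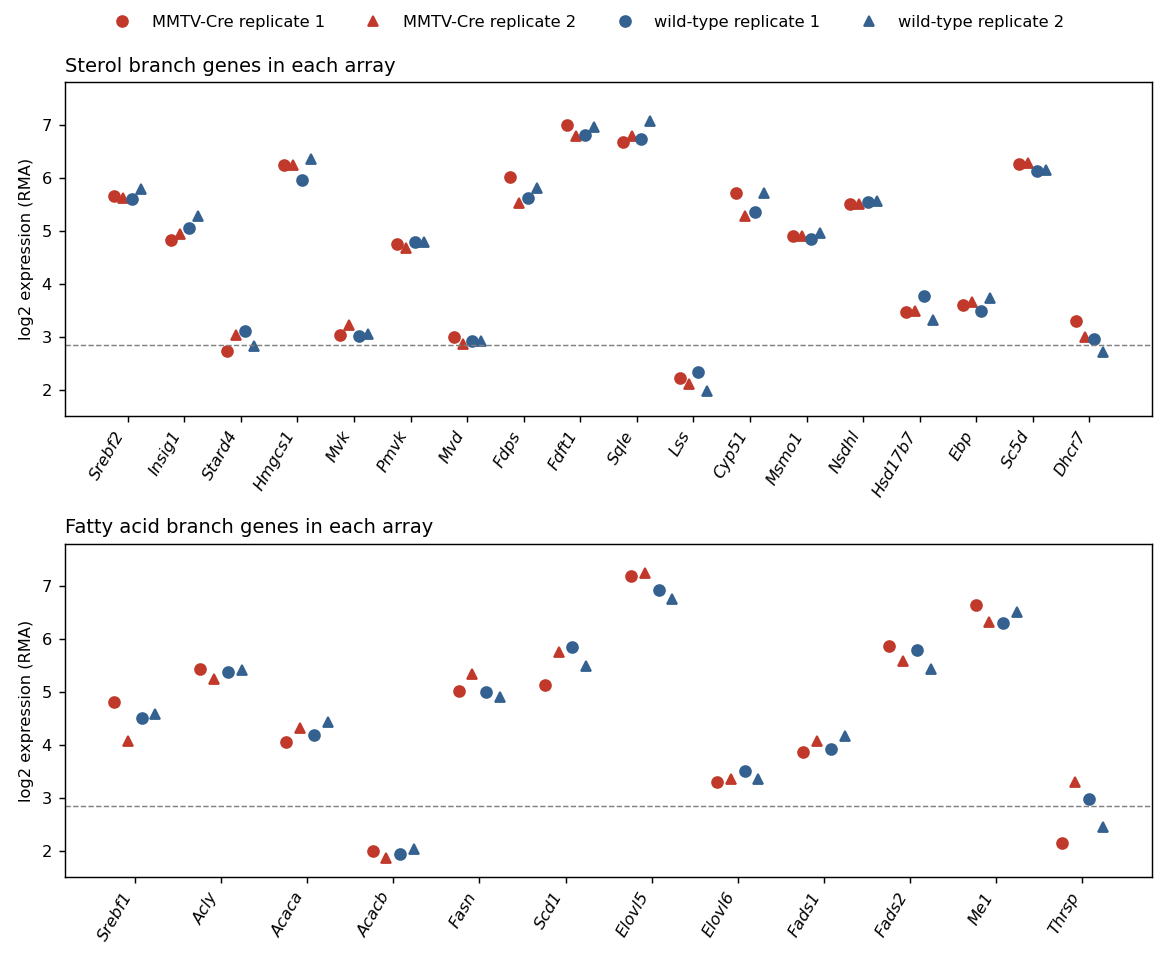
Log2 expression of the 18 measured sterol genes (above) and 12 measured fatty acid genes (below) in each of the 4 arrays, with MMTV-Cre in red and wild-type in blue, circles for replicate 1 and triangles for replicate 2. The dashed line marks 2.84, the limit for dim probe sets, and levels of different genes come from different probes and are not comparable; the groups overlap in most genes.

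Among the regulators of the sterol branch, Insig1, whose product retains SREBP in the endoplasmic reticulum and which is itself an SREBP target, stood at 4.82 and 4.94 in the MMTV-Cre arrays, against 5.05 and 5.28 in the wild-type arrays. Both MMTV-Cre values lay below both wild-type values, and the nearest arrays of the groups were 0.11 apart, where the wild-type arrays lay 0.23 from each other. The log2 difference was −0.28 (95% interval −0.62 to 0.06, unadjusted p = 0.0842, limma adjusted p = 0.964). In all, 11.9% of the genes tested differed by as much or more, and without 1 array each the difference ran between −0.40 and −0.17. Srebf2 read 5.65 and 5.61 in MMTV-Cre cells, against 5.60 and 5.78 in wild-type cells, with a difference of −0.06 (−0.37 to 0.25). Stard4, which encodes a carrier that moves cholesterol between membranes, differed by −0.08 (−0.51 to 0.34), and its levels of 2.72 to 3.10 straddled the limit for dim probe sets.

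The genes from acetyl-CoA to isoprenoids had differences on both sides of 0. Hmgcs1, the cytosolic synthase at the head of the mevalonate pathway, was alike in both MMTV-Cre arrays, at 6.25 and 6.24, and stood at 5.95 and 6.35 in wild-type. Its 2 MMTV-Cre values lay between those of wild-type, and the difference was 0.10 (−0.32 to 0.51). The kinase genes Mvk and Pmvk differed by 0.09 (−0.22 to 0.40) and −0.08 (−0.35 to 0.20). Pmvk was 4.74 and 4.68 in MMTV-Cre and 4.79 in each wild-type array, so the 0.05 between its nearest arrays was smaller than the gap of 0.06 within MMTV-Cre. Mvd, the decarboxylase gene, differed by 0.01 (−0.28 to 0.30), near the dim limit at 2.86 to 2.99. Fdps, which makes farnesyl diphosphate, held both its extremes in MMTV-Cre, 6.02 in replicate 1 and 5.52 in replicate 2, against 5.61 and 5.81 in wild-type. The difference of 0.06 (−0.45 to 0.57) was small beside the gap of 0.50 between its MMTV-Cre arrays.

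At the squalene and lanosterol steps the same array order came back in part. Fdft1, the squalene synthase gene, read 7.00 and 6.78 in MMTV-Cre cells, against 6.80 and 6.96 in wild-type cells, and its difference was 0.00 (−0.34 to 0.35). Cyp51, the lanosterol demethylase gene, read 5.72 and 5.28 in MMTV-Cre cells, against 5.35 and 5.72 in wild-type cells, a difference of −0.04 (−0.57 to 0.49). Fdps, Fdft1 and Cyp51 were each lowest in MMTV-Cre replicate 2, with MMTV-Cre replicate 1 and wild-type replicate 2 the upper pair. Sqle, which oxidises squalene, read 6.68 and 6.79 in MMTV-Cre cells, against 6.73 and 7.08 in wild-type cells, and differed by −0.17 (−0.57 to 0.24). Lss, which closes the ring to lanosterol, was below the dim limit in all 4 arrays, at 2.22 and 2.11 in MMTV-Cre cells, against 2.33 and 1.97 in wild-type cells.

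The genes that turn lanosterol into cholesterol included the largest positive difference of the branch. Dhcr7, the last reductase of the pathway, read 3.30 and 2.99 in MMTV-Cre cells, against 2.95 and 2.70 in wild-type cells. The nearest arrays of the groups were 0.03 apart, and the levels were close to the dim limit, with 1 wild-type value below it. The difference was 0.32 (−0.10 to 0.75, unadjusted p = 0.110, limma adjusted p = 0.964), and 8.63% of the genes tested differed by as much or more. Sc5d, a sterol desaturase gene, read 6.26 and 6.28 in MMTV-Cre cells, against 6.12 and 6.15 in wild-type cells. Its arrays were close within each group and its difference was 0.14 (−0.14 to 0.41). Nsdhl, a sterol dehydrogenase gene, had the smallest range of all 30 genes, 0.08, at 5.50 and 5.51 in MMTV-Cre and 5.55 and 5.57 in wild-type. Its groups were apart by a difference of only −0.06 (−0.33 to 0.21). Msmo1, which oxidises methylsterols, was 4.90 in both MMTV-Cre arrays and 4.85 and 4.95 in wild-type. The reductase gene Hsd17b7 read 3.47 and 3.48 in MMTV-Cre cells, inside its wild-type values of 3.76 and 3.31, and the isomerase gene Ebp differed by 0.02 (−0.32 to 0.36).

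In the fatty acid branch the regulator Srebf1 had both its extremes in MMTV-Cre, 4.81 in replicate 1 and 4.07 in replicate 2, against 4.51 and 4.59 in wild-type. Its difference was −0.11 (−0.76 to 0.55), with a gap of 0.74 between the MMTV-Cre arrays and 0.09 between the wild-type arrays. Thrsp, whose product promotes lipogenesis in fat, liver and lactating mammary gland, had the largest range of all 30 genes, 1.15, at 2.14 and 3.29 in MMTV-Cre cells, against 2.97 and 2.44 in wild-type cells. It crossed the dim limit within each group, and its group means were both 2.71. The genes that supply acetyl-CoA and reducing power varied less. Acly, the ATP citrate lyase gene, read 5.43 and 5.24 in MMTV-Cre cells, against 5.38 and 5.42 in wild-type cells, and the malic enzyme gene Me1 read 6.65 and 6.32 in MMTV-Cre cells, against 6.31 and 6.51 in wild-type cells.

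Of the enzymes that build the fatty acid chain, Fasn, the fatty acid synthase gene, was higher in both MMTV-Cre arrays. It stood at 5.02 and 5.33 there and at 5.00 and 4.90 in wild-type, so the nearest arrays of the groups were 0.02 apart. The difference was 0.22 (−0.15 to 0.60, unadjusted p = 0.183), and without MMTV-Cre replicate 2 it was 0.07. Acaca, the cytosolic acetyl-CoA carboxylase gene, read 4.05 and 4.32 in MMTV-Cre cells, against 4.19 and 4.43 in wild-type cells, a difference of −0.12 (−0.52 to 0.27). Acacb, whose product sits on mitochondria and restrains fatty acid oxidation, was below the dim limit in all 4 arrays, between 1.87 and 2.04. The Fasn and Acaca differences had opposite signs, and both intervals included 0.

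Elovl5, an elongase of polyunsaturated fatty acids, had the largest difference of the 30 genes. It stood at 7.19 and 7.25 in the MMTV-Cre arrays, against 6.93 and 6.75 in the wild-type arrays. Both MMTV-Cre arrays were above both wild-type arrays, and the difference exceeded the gaps of 0.06 and 0.18 within the MMTV-Cre and wild-type groups. The log2 difference was 0.38, a 1.30-fold higher level in MMTV-Cre (interval 0.07 to 0.69, unadjusted p = 0.0245, limma adjusted p = 0.964). Of the 11668 genes tested, 595 (5.10%) differed by as much or more and 214 had an unadjusted p as small or smaller. Without 1 array each the difference ran between 0.29 and 0.47, and of these 4 intervals the one without wild-type replicate 1 left out 0. Srebf1, whose groups overlap, also had such an interval, around −0.48, without MMTV-Cre replicate 1. Its difference was 0.26 without MMTV-Cre replicate 2.

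The desaturases and the other elongase showed no such separation, or a small one. Elovl6, which elongates saturated and monounsaturated chains, read 3.30 and 3.35 in MMTV-Cre cells, against 3.50 and 3.36 in wild-type cells. It was lower in both MMTV-Cre arrays, although the nearest arrays of the groups all but touched, with a difference of −0.10 (−0.40 to 0.20). Fads1 and Fads2, the desaturases of the polyunsaturated chain that Elovl5 elongates, differed by −0.07 (−0.44 to 0.29) and 0.11 (−0.35 to 0.56). They are neighbours on the RefSeq assembly, with 0 protein-coding genes between them, and their array orders differed. Fads2 read 5.87 and 5.59 in MMTV-Cre cells, against 5.80 and 5.44 in wild-type cells, and Fads1 read 3.86 and 4.07 in MMTV-Cre cells, against 3.93 and 4.16 in wild-type cells. Scd1, the stearoyl-CoA desaturase that makes monounsaturated chains, read 5.13 and 5.76 in MMTV-Cre cells, against 5.84 and 5.49 in wild-type cells. It was lowest in MMTV-Cre replicate 1, and its difference of −0.22 (−0.86 to 0.42) was smaller than the gap of 0.63 between the MMTV-Cre arrays.

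**Figure D2:**
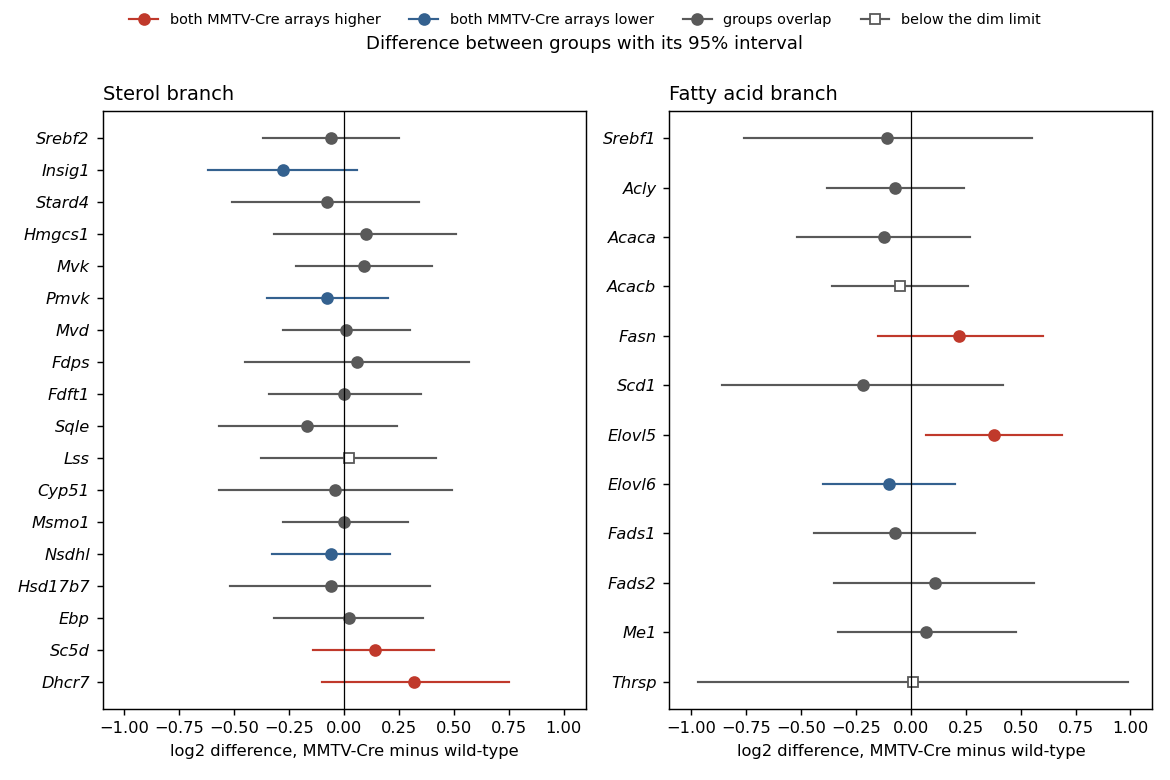
Log2 difference, MMTV-Cre minus wild-type, of each measured gene with its 95% interval from limma, the sterol branch on the left and the fatty acid branch on the right. Red marks genes with both MMTV-Cre arrays above both wild-type arrays, blue those with both below, grey those whose groups overlap, and open squares the 3 genes below the dim limit; the interval of Elovl5, 0.07 to 0.69, is the one that leaves out 0.

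The centres of both branches lay near that of all genes. The median difference was 0.00 over the 18 measured sterol genes and −0.06 over the 12 measured fatty acid genes, beside 0.00 over all genes tested. In the sterol branch 10 differences lay above 0 and 8 below, and in the fatty acid branch 5 above and 7 below. For 24 of the 30 genes (80.0%) the gap between the arrays of at least 1 group was larger than the difference between the groups, as it was for 78.4% of all genes tested. After each gene's average over the 4 arrays was subtracted, the sterol branch stood at 0.02 and −0.03 in the MMTV-Cre arrays and at −0.02 and 0.03 in the wild-type arrays. The fatty acid branch was at −0.04 and 0.04 in the MMTV-Cre arrays and at 0.03 and −0.03 in the wild-type arrays. In both branches the arrays of a group lay on opposite sides of 0. Of the 18 sterol genes, 8 were highest in wild-type replicate 2, where 28.3% of all genes tested were highest, and 4 or fewer in each other array. Of the 12 fatty acid genes, 5 were lowest in MMTV-Cre replicate 1, where 30.2% of all genes tested were lowest.

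The other genes of these pathways, listed with earlier results of the data known, did not pass either. Of 9 measured genes for other sterol steps and SREBP processing, all were tested and 0 passed in either direction, and their median difference was −0.02. Tm7sf2, a sterol reductase gene, read 3.65 and 3.44 in MMTV-Cre cells, against 4.00 and 3.84 in wild-type cells, a difference of −0.37 (−0.72 to −0.03, unadjusted p = 0.0380, limma adjusted p = 0.964). Dhdds, which draws farnesyl diphosphate into dolichol synthesis, read 4.22 and 3.84 in MMTV-Cre cells, against 3.49 and 3.72 in wild-type cells, a difference of 0.42 (−0.02 to 0.87). The protease genes Mbtps2 and Mbtps1, which release SREBP, differed by 0.22 (−0.18 to 0.62) and −0.15 (−0.45 to 0.15). Of 22 measured genes for other fatty acid and triglyceride steps, 16 were tested and 0 passed in either direction, with a median of 0.03 over the 22. Elovl2, a further elongase of polyunsaturated chains, read 3.19 and 2.97 in MMTV-Cre cells, against 2.88 and 2.62 in wild-type cells, a difference of 0.32 (−0.06 to 0.71). The lipogenic regulators Mlxipl and Mid1ip1 differed by 0.23 (−0.17 to 0.63) and 0.24 (−0.22 to 0.70), and the acyltransferase gene Dgat1, which completes triglycerides, by −0.24 (−0.68 to 0.20). The levels of Elovl2 and Mlxipl were close to the dim limit, with a wild-type value of each below it.

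Of the 15 mammary epithelial markers, 14 were above the dim limit in all 4 arrays. The luminal keratin Krt8 stood at 10.30 to 10.40, Epcam at 8.52 to 8.67 and the basal keratin Krt14 at 7.27 to 8.07. Others were lower, with Elf5 at 3.85 to 4.06 and Trp63 at 3.11 to 3.66. Oxtr, at 2.26 to 2.56, was below the limit in all arrays. Among the 15 epithelial markers the smallest p was that of Acta2, a smooth muscle actin gene of basal cells, which read 8.46 and 8.26 in MMTV-Cre cells, against 8.04 and 7.87 in wild-type cells, a difference of 0.40 (0.06 to 0.75, unadjusted p = 0.0289, limma adjusted p = 0.964). Krt18, Cldn4 and Cldn3 differed by 0.18, 0.17 and 0.17, with intervals that included 0. Krt14, also of basal cells, went the other way, by −0.33 (−1.03 to 0.37). Of the 15 markers, 6 differences lay above 0 and 9 below, with a median of −0.03. Markers of other cells were read as well. Of 14 measured white adipocyte markers, 10 were above the dim limit in all arrays and 2, Lep and Pck1, were below it in all. That limit is the median of all probe sets and not a limit of detection. By the mean over the arrays 11 of the 14 reached it, as did 11668 of all 22180 genes. Fabp4, the fatty acid binding protein of fat and some other cells, read 9.51 and 9.84 in MMTV-Cre cells, against 9.51 and 9.76 in wild-type cells, and Adipoq, which encodes adiponectin, read 3.18 and 3.27 in MMTV-Cre cells, against 3.35 and 3.41 in wild-type cells. The mean level over the 14 markers read 4.29 and 4.69 in MMTV-Cre cells, against 4.46 and 4.59 in wild-type cells. Single markers differed in their order over the arrays, with 6 of the 14 lowest in MMTV-Cre replicate 1 and 5 lowest in wild-type replicate 1. Of all genes tested, 30.2% and 28.8% were lowest in these arrays. Of the lipid droplet genes, Plin1 read 3.0 and 3.01 in MMTV-Cre cells, against 3.35 and 3.33 in wild-type cells. Its groups did not overlap, with a difference of −0.34 (−0.61 to −0.07, unadjusted p = 0.0241, limma adjusted p = 0.964). Cidec read 2.39 and 3.77 in MMTV-Cre cells, against 4.08 and 3.56 in wild-type cells. The amine oxidase gene Aoc3 ran the other way, at 4.47 and 4.15 in MMTV-Cre cells, against 3.66 and 4.09 in wild-type cells, and the lipase gene Lipe read 4.50 and 4.34 in MMTV-Cre cells, against 4.57 and 4.70 in wild-type cells. Scd1 and Thrsp were lowest in MMTV-Cre replicate 1, as were 6 of the 14 markers, Cidec, Car3, Lpl, Adipoq and Plin1 among them. The other markers, Aoc3 and Lipe among them, were lowest in other arrays. Plin1, whose levels were close to the dim limit, was alike in both MMTV-Cre arrays. The part of adipocyte transcripts in the values of Scd1 and Thrsp was not tested.

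**Figure D3:**
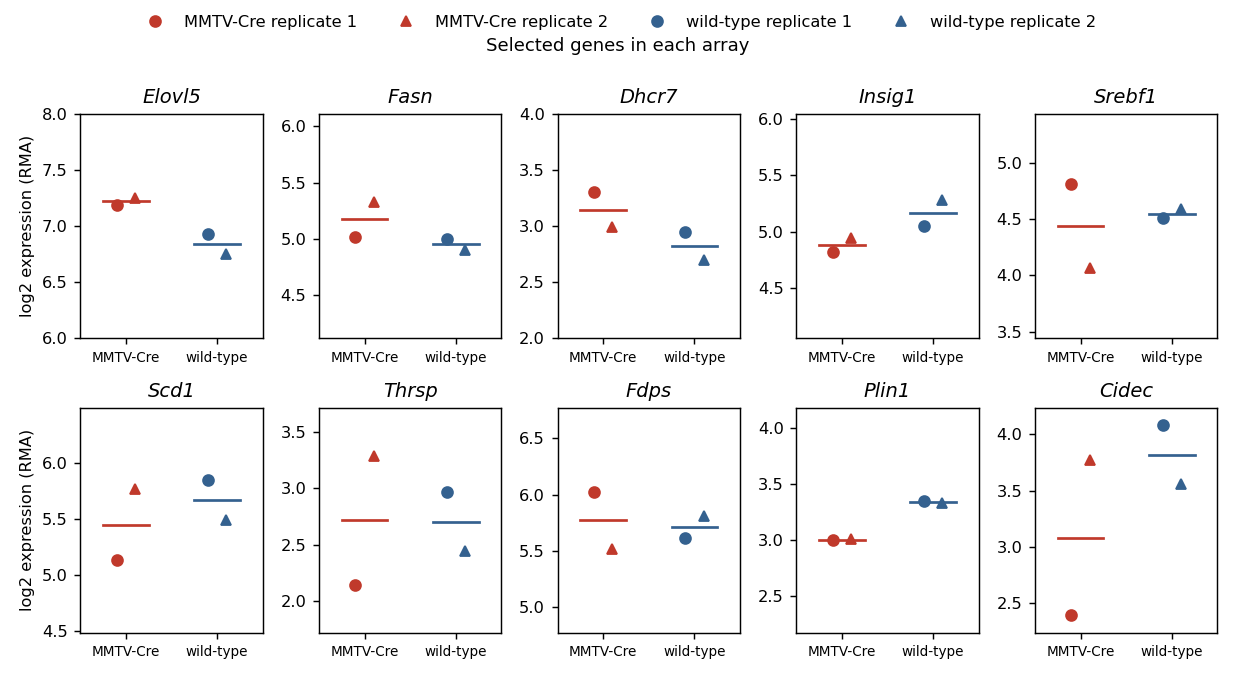
Log2 expression of 8 synthesis genes and of the adipocyte genes Plin1 and Cidec in each array, MMTV-Cre on the left of each panel and wild-type on the right, circles for replicate 1 and triangles for replicate 2, with a bar at each group mean and every axis spanning 2 log2 units. Elovl5 and Plin1 have their groups apart in opposite directions, and Scd1, Thrsp and Cidec have wide gaps within groups.

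The fibroblast markers, 10 of 10 above the dim limit in all arrays, had a mean level of 6.83 and 7.43 in MMTV-Cre and of 6.91 and 6.87 in wild-type, and all 10 were highest in MMTV-Cre replicate 2. Their median difference was 0.30, with 9 of 10 above 0, and 0 passed the test. Groups did not overlap in 5 of 10 (Col1a1, Dpt, Col3a1, Col6a3 and Col1a2), all higher in MMTV-Cre, where 16.7% of all genes tested were. Of the 30 synthesis genes, 5 were highest in MMTV-Cre replicate 2 (Elovl5, Fasn, Sc5d, Mvk and Thrsp) and 8 were lowest there, Srebf1 and Fdps among them. Of all genes tested, 27.6% were highest and 22.7% lowest in that array. Without that array the Elovl5 difference was 0.36 (−0.09 to 0.80). The part of fibroblast transcripts in these values was not tested. The lymphocyte markers had a mean deviation from their average of −0.73 and −0.63 in MMTV-Cre and of 2.02 and −0.66 in wild-type. All 10 were highest in wild-type replicate 1, where 20.5% of all genes tested were. Of the 10 markers, 4 were above the dim limit in all arrays, the T cell genes Lat and Cd3e, the leukocyte gene Ptprc and the immunoglobulin gene Ighm. The cytokine receptor gene Il7r read 2.62 and 3.54 in MMTV-Cre cells, against 6.41 and 3.38 in wild-type cells. Without wild-type replicate 1 the difference was 0.47 (0.05 to 0.90) for Elovl5 and −0.40 (−0.83 to 0.03) for Insig1, against 0.38 and −0.28 with all arrays. For Dhcr7 it was 0.45 (−0.07 to 0.97) without that array, against 0.32 with all. Other differences shrank without it, Sc5d from 0.14 to 0.12 and Elovl6 from −0.10 to −0.03. Some changed sign, such as Hmgcs1 from 0.10 to −0.10 and Hsd17b7 from −0.06 to 0.16. The part of lymphocyte transcripts in these shifts was not tested.

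**Figure D4:**
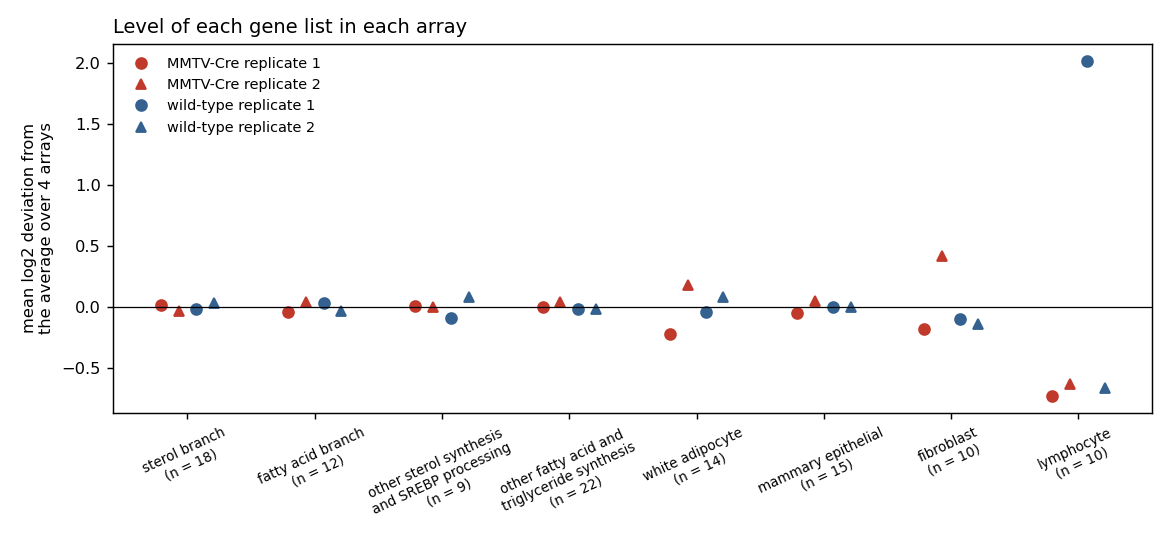
Mean log2 deviation of each gene list from its average over the 4 arrays, MMTV-Cre in red and wild-type in blue, circles for replicate 1 and triangles for replicate 2, with the number of measured genes under each list. The 2 synthesis branches lie within 0.04 of 0 in every array, whereas the lymphocyte list reaches 2.02 in wild-type replicate 1, the fibroblast list 0.42 in MMTV-Cre replicate 2, and the adipocyte list spreads between −0.22 and 0.18.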

How the data were processed

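Transcripts were measured on 1 Affymetrix array per sample, 2 MMTV-Cre and 2 wild-type, from 50 ng of total RNA, per the labels' protocols. The authors deposited log2 expression per probe set, made with oligo and RMA per the submitters' processing notes; versions and the probe set annotation were not given in the sources used here. That the scale is log2 was read from the values, whose array medians were 2.83 to 2.86. Of 41345 probe sets, 23521 had 1 symbol in the platform annotation, 1814 several and 16010 none named here. Each gene was represented by its brightest single-symbol probe set. Genes with a mean at or above 2.84 were tested with limma 3.58.1 in R 4.3.3 (lmFit and eBayes without a trend), two-sided, with Benjamini-Hochberg adjustment over 11668 genes at 0.05. The procedure was tested on simulated data with planted differences larger than that of any member. Detection of differences as small as those of the members was not tested. The number of arrays limits the precision.

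All 32 members are named, and from each other list up to 4 genes by smallest p and fixed defining markers. The members and lists were chosen with earlier results of these data known. All 30 measured members matched RefSeq by Entrez identifier. The alternatives were no filter or a stricter one (a mean of at least 4), a gene's probe sets averaged or tested singly, quantile normalization, centring on medians, eBayes with a trend or robust, a replicate block, an unadjusted threshold and each array left out. Deviations of same-numbered samples from their group means correlated at −0.04 over genes, so the block is only an alternative.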

Additional observations from a re-analysis of the deposited data

How the results depend on the processing

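By limma 0 genes passed in each alternative that kept all 4 arrays and an adjusted p, and 0 members passed in any alternative with an adjusted p. At an unadjusted p under 0.05 there were 504 genes and 1 member, Elovl5. Without 1 array each, between 0 and 13 genes passed, the 13 without wild-type replicate 2, and no member was among them. The replicate block left the counts at 0 genes and 0 members, and the samples share only a number. The branch medians ran from −0.04 to 0.03 (sterol) and from −0.07 to −0.05 (fatty acid) under the alternatives that kept all arrays, and from −0.07 to 0.05 and −0.04 to 0.05 without 1 array each. These medians are over the genes tested in each alternative, mostly 17 sterol and 10 fatty acid genes. The sterol −0.04 came from the 11 genes of the stricter filter. Over the 10 tested genes the fatty acid median, −0.07 with all arrays, turned positive without MMTV-Cre replicate 2, at 0.05. Of 263 member values under alternatives that kept all arrays, 0 changed sign. Only quantile normalization and centring on medians could change a member's difference. The others leave it as it is, since each member has 1 probe set and the groups are balanced, so most of these values could not change sign. Of 27 tested members, 19 changed sign without at least 1 array, and the 8 that did not are those whose groups do not overlap, where leaving out an array cannot turn the sign. The ranges without 1 array each were −0.25 to 0.01 for Acaca, −0.16 to 0.03 for Acly, −0.26 to 0.18 for Cyp51, −0.10 to 0.14 for Ebp, −0.19 to 0.04 for Fads1, −0.07 to 0.29 for Fads2, −0.11 to 0.11 for Fdft1, −0.19 to 0.32 for Fdps, −0.10 to 0.29 for Hmgcs1, −0.29 to 0.16 for Hsd17b7, −0.09 to 0.24 for Me1, −0.05 to 0.05 for Msmo1, −0.05 to 0.08 for Mvd, 0.00 to 0.18 for Mvk, −0.54 to 0.09 for Scd1, −0.34 to 0.01 for Sqle, −0.48 to 0.26 for Srebf1, −0.15 to 0.03 for Srebf2 and −0.24 to 0.07 for Stard4. In these fits the lone array of a group is assumed to vary as the other group does. The causes of these shifts were not tested. Probe sets near the dim limit (Stard4, Mvk, Mvd and Dhcr7) carry little signal over background, so the size of a difference is uncertain there.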

Other observations

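Genes that handle sterols after synthesis were not described above. Of 13 listed for efflux, trafficking and esterification, 11 were measured, 10 tested and 0 passed by limma, at an unadjusted p under 0.05 also 0, and their median difference was −0.08. The endosomal cholesterol transfer gene Stard3 read 3.14 and 3.39 in MMTV-Cre cells, against 3.60 and 3.33 in wild-type cells, a difference of −0.21 (95% interval −0.61 to 0.20). The efflux transporter gene Abcg1 read 3.20 and 3.57 in MMTV-Cre cells, against 3.89 and 3.37 in wild-type cells, a difference of −0.24 (−0.82 to 0.34). The lysosomal lipase gene Lipa differed by −0.17 (−0.53 to 0.18), and Mylip, which encodes a ubiquitin ligase of lipoprotein receptors, by −0.17 (−0.65 to 0.30). Of the 11 measured genes, 6 were highest in wild-type replicate 1, where 20.5% of all genes tested were highest and where the lymphocyte markers were highest too, and the part of lymphocytes in this was not tested.

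Of 13 genes listed for fatty acid oxidation, the opposite route to synthesis, 10 were measured, 7 tested and 0 passed by limma, at an unadjusted p under 0.05 also 0. The median difference was 0.01. The dehydrogenase gene Acadm read 5.66 and 5.47 in MMTV-Cre cells, against 5.87 and 5.79 in wild-type cells, with no overlap and a difference of −0.26 (−0.58 to 0.05). Acadvl differed by 0.09 (−0.20 to 0.38), the carnitine acyltransferase gene Cpt1a by −0.07 (−0.34 to 0.20) and the trifunctional protein gene Hadha by 0.07 (−0.22 to 0.37).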
